A study of Mus musculus with 12 samples.

Results

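The transient receptor potential (TRP) channels treated here are 9 genes of sensory neurons: Trpa1, Trpv1, Trpv2, Trpv4, Trpm2, Trpm3, Trpm4, Trpm8 and Trpc1. They were chosen by name, all 9 were found among the 15322 genes of the deposited table, and all 9 passed the filter that left 15194 genes to test. Their transcripts were measured by RNA sequencing of lumbar dorsal root ganglia, which hold the cell bodies of body sensory neurons, from mice of wild-type genotype harvested on postnatal day 9. From postnatal day 2 until then, dam and pups were housed on control bedding or on limited bedding, which the labels describe as inducing chronic early life stress. The 12 libraries formed 4 groups of 3, females and males on each bedding, called control and stress below. The labels name no transgene or drug. They give neither litters nor pooling of animals. The p-values below therefore reflect only how these libraries spread, which may be technical.

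TRP channels are tetrameric cation channels that open to temperature, chemicals, lipids or intracellular messengers and let calcium and sodium into the cell. In nociceptors, the neurons of pain and itch, TRPA1 answers to pungent irritants such as mustard oil and TRPV1 to capsaicin, acid and heat, while TRPM8 answers to cool and menthol in cold-sensing neurons. TRPM2 and TRPM3 have been tied to warmth and heat in mouse sensory neurons, and inflammatory receptors acting through phospholipase C and protein kinases raise the sensitivity of several of these channels.

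The libraries carried transcripts of neurons, which do not by themselves define this tissue. All 20 pan-neuronal genes looked for were tested, with a summed level of 340488 to 355536 normalized values in control and 318708 to 351137 in stress libraries. Column totals were alike after the authors' scaling (21252841 to 22394913), and read depth was not recovered with certainty, since no library's low values were evenly enough spaced. The best spacing gave rough estimates of 16500000 to 27000000 reads in 11 libraries, and in stress female replicate 2 only 28.9% of low values lay near it. In bulk tissue, fewer cells of a type and less RNA per cell cannot be told apart, and this holds for every result below. Trpm3 and Trpm8 share exonic stretches with genes on the opposite strand, and the strand setting of the counting is not given in the sources used here, so reads from those stretches could not be assigned with certainty. Trpm2 shares exonic stretches with Gm22394 and Gm22871 on the same strand, where a strand setting would not separate the reads. Neither of these is among the genes of the deposited table.

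Levels of different genes were ordered per kilobase of the longest protein-coding transcript. Trpv1 had the highest level, at 879 ± 46.4 normalized values per kilobase in control libraries (SD, n = 6) and 702 ± 41.4 in stress libraries (SD, n = 6). Trpv2 came next at 487 ± 30.1 and 428 ± 26.4, and its range overlapped that of no other channel. In control libraries Trpm8 (254 ± 30.04) and Trpa1 (229 ± 16.6) followed with overlapping ranges, and their order turned with the length of all annotated exons in place of the longest transcript. Trpm3 at 166 ± 11.9 and Trpc1 at 166 ± 13.2 per kilobase overlapped too, with Trpm4 (139 ± 6.07) and Trpm2 (88.7 ± 5.24) below both, though over all annotated exons Trpm3 came to 141 ± 10.1 and Trpm4 to 137 ± 5.96. Trpv4 had the lowest level, 7.14 ± 1.34 per kilobase.

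By the longest transcript, the order in stress libraries differed in the place of Trpa1, at 81.3 ± 17.6 per kilobase (SD, n = 6). There it lay below Trpm3 (179 ± 11.3), Trpc1 (169 ± 12.4) and Trpm4 (157 ± 15.0), whose lowest library was at 145, above the highest Trpa1 library at 113. Its range reached that of Trpm2, at 57.3 to 65.2 per kilobase. In control libraries every Trpa1 value per kilobase (198 to 246) had been above every value of Trpm3, Trpc1, Trpm4 and Trpm2. Over all annotated exons Trpm4 moved too, standing narrowly above Trpm3 in stress libraries (155 ± 14.7 and 152 ± 9.60).

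**Figure D1:**
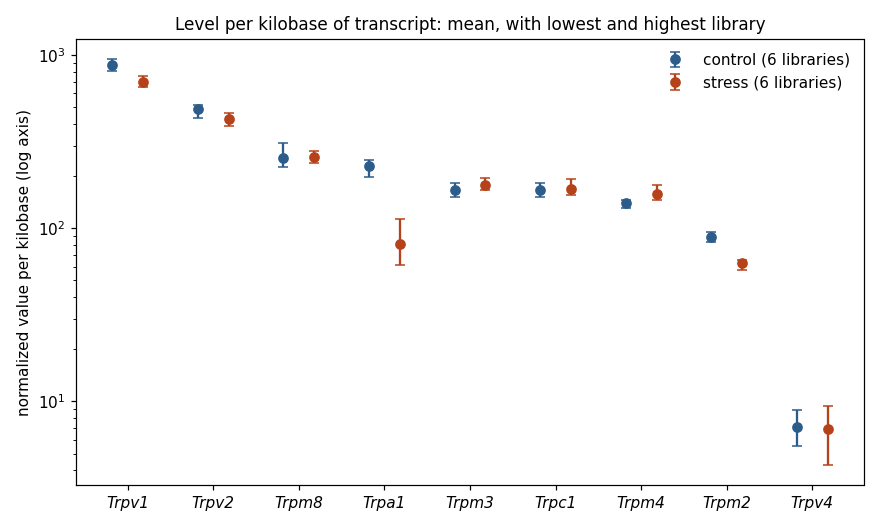
Normalized value per kilobase of the longest protein-coding transcript (log axis) for the 9 TRP channel genes, ordered by the control mean. Points are means of 6 libraries and bars reach to the lowest and highest library. Trpa1 stands at 229 in control and at 81.3 in stress, where it lies below Trpm3, Trpc1 and Trpm4.

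Limited bedding was compared with control bedding over both sexes first. Of the 9 channels 4 were lower (Trpa1, Trpm2, Trpv1 and Trpv2), 1 was higher (Trpm4) and 4 did not pass (Trpm3, Trpm8, Trpc1 and Trpv4), at a limma adjusted p under 0.05. Of all 15194 genes 26.2% were called, 13.4% lower and 12.8% higher, so the count over these genes is read against a wide background. The median log2 fold change of the 9 was -0.06, beside 0.01 over all genes tested. Fold changes are on the scale of log2(value + 1), which understates changes of low genes such as Trpv4. The authors' deposited table gave adjusted p under 0.05 for the same 5 channels, with log2 fold changes of -1.50 for Trpa1, -0.50 for Trpm2, -0.32 for Trpv1, -0.19 for Trpv2 and 0.18 for Trpm4.

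**Figure D2:**
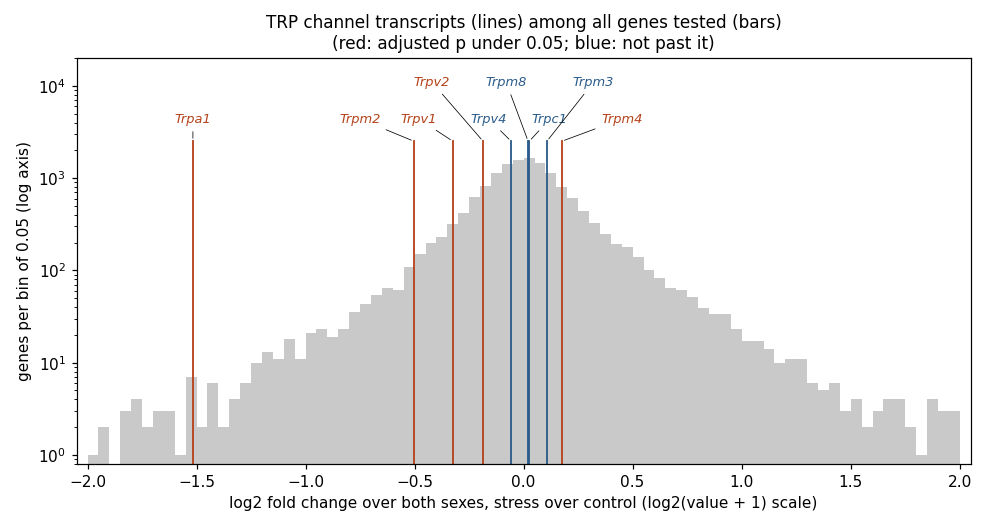
Number of genes per bin of 0.05 (log axis) against the log2 fold change over both sexes, for the 15194 genes tested, with a line for each TRP channel gene. Red lines passed an adjusted p of 0.05 and blue lines did not, and 31 genes lie outside the plotted range. Trpa1, at -1.52, lies far down the lower tail, and the other 8 lie between -0.50 and 0.17.

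Trpa1, the irritant channel (chromosome 1 from 14872648 to 14918862, minus strand, mm10, ENSMUSG00000032769.5), changed most of the 9. Control females stood at 964, 1002 and 1004 normalized values and control males at 845, 1003 and 1051. Stress females stood at 333, 481 and 372 and stress males at 311, 259.8 and 324. Every stress library was thus below every control library, with a wide gap between 481 and 845, and the stress females lay above the stress males. Trpa1, Trpv1 and Trpm2 were the 3 of 9 separated in this way, all downward; over all genes 5.73% had every stress library below every control library and 5.21% had every one above.

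The fall of Trpa1 over both sexes was 2.86-fold, or -1.52 ± 0.09 on the log2 scale (SE, 95% interval -1.70 to -1.33), at a limma adjusted p of 1.60e-08. It ranked 37 from the lowest among 15194 genes, of which 0.81% were under -1. In the 23 alternatives run its log2 fold change stayed between -1.59 and -1.36, and the adjusted p was at most 4.01e-05. The coefficient of variation in males was 11.4% in stress and 11.1% in control, and in females 19.4% and 2.32% (n = 3 each).

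Trpv1, the capsaicin and heat channel (chromosome 11 from 73234292 to 73261242, plus strand), fell less. Its control libraries stood at 2946, 2896 and 3062 normalized values in females and at 2921, 2719 and 3179 in males. The stress libraries stood at 2317, 2511 and 2249 in females and at 2526, 2181 and 2376 in males. All 6 stress libraries lay below all 6 control libraries, and the ranges of the sexes overlapped within each treatment. The log2 fold change was -0.32 ± 0.05 (SE, limma adjusted p = 0.000167), a 1.25-fold fall.

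Trpv2, a relative of Trpv1 found in larger sensory neurons and in immune cells, lies on the same chromosome (11, from 62574486 to 62600515, plus strand). It stood at 1502, 1409.9 and 1441 normalized values in control females against 1283, 1238 and 1125 in stress females, with no overlap. How many of all genes separate in this way within a sex was not computed. In males the control values of 1405, 1258 and 1487 overlapped the stress values of 1196, 1290.3 and 1342. Over both sexes the log2 fold change was -0.19 ± 0.05 (SE, limma adjusted p = 0.0161), and the call was lost when libraries were scaled to the pan-neuronal genes (-0.13, adjusted p = 0.101).

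Promoter windows of Trpv1, Trpv2 and Trpm8 are shown as examples of the motifs searched. Over all 10 windows no motif separated the channels that fell from those that did not pass, and Trpa1, which fell most, had no window. Each run holds 250 bases before and 50 after a RefSeq start on GRCm38.p6: chr11:73233899-73234198 for Trpv1, chr11:62574236-62574535 for Trpv2 and chr1:88306485-88306784 for Trpm8, all on the plus strand. The Trpm8 start lies inside the gene's annotated span, and for Trpv2 the most upstream of 3 listed starts is shown. Of the 9 genes, 7 matched the table, with 10 windows; Trpa1 and Trpm4 are named only. Capitals mark TGTGGT, the core letters bound by RUNX factors, among them RUNX1 of developing nociceptors, and TATAAA, the TATA box, searched on both strands; the capitals of these motifs do not overlap.
Trpv1: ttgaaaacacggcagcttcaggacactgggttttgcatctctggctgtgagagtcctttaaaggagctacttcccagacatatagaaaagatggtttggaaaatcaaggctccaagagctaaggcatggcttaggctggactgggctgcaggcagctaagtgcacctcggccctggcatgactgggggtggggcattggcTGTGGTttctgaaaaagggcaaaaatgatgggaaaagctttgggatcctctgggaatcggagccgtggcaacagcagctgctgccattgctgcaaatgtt
Trpv2: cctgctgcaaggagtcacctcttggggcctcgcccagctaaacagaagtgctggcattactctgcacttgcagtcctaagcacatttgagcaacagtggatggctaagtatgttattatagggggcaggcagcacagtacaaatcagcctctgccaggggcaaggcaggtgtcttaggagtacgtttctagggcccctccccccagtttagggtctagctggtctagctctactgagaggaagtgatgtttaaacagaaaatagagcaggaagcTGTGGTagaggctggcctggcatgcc
Trpm8: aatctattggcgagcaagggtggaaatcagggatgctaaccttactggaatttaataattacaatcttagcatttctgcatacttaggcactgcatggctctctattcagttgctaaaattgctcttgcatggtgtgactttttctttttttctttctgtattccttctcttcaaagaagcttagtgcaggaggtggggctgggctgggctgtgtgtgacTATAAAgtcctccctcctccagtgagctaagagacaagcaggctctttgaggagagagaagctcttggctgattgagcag
TGTGGT occurs at -50 from the start in Trpv1 and at 24 in Trpv2, on the plus strand in both, and is not in the Trpm8 window, where TATAAA occurs at -30. Of 32851 promoters of this length 16.8% hold TGTGGT and 13.6% hold TATAAA, so either match is common. Among the other windows, TGTGGT occurs at -3 from the second Trpv2 start, which also holds TATAAA at 36. On the strand opposite the gene it occurs at -166 from the second of 2 Trpm3 starts, a gene that did not pass. Trpm2, which fell more than Trpv1, has no TGTGGT and holds TATAAA at -240, on the strand opposite the gene. AGAACA, letters bound by the glucocorticoid receptor, occurs in 1 of the 10 windows and in 19.0% of all promoters. That match is at -226 from the third Trpv2 start, on the strand opposite the gene. TGACGTCA, the cyclic AMP response element, is in none of the 10 windows and in 1.79% of all promoters. These matches describe letters and show no binding.

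Trpm2, a calcium-permeable channel gated by ADP-ribose and oxidative stress (chromosome 10 from 77907722 to 77970563, minus strand), fell next most after Trpa1 among the 9. Control females stood at 682, 620.1 and 694 normalized values and control males at 613, 605 and 659. Stress females stood at 474, 466 and 417 and stress males at 471, 456 and 448. The groups did not overlap in either sex, and the spread over stress libraries was small (coefficient of variation 4.61%, against 5.90% in control). The log2 fold change was -0.50 ± 0.06 (SE, limma adjusted p = 1.14e-05), a 1.42-fold fall, and it kept its call in all 23 alternatives (-0.57 to -0.45).

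Trpm4, which carries sodium and potassium when intracellular calcium rises (chromosome 7 from 45302632 to 45333780, minus strand), was the only one of the 9 called higher. It stood at 559, 609.5 and 556 normalized values in control females and at 612, 636 and 623 in stress females. In males it stood at 589, 609 and 612 in control and at 635, 754 and 741 in stress. Within each sex every stress library was above every control library, by a narrow margin in females, while over both sexes the treatments overlapped at 612. The share of all genes separated within a sex was not computed. The log2 fold change was 0.17 ± 0.06 (SE, limma adjusted p = 0.0312).

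The rise of Trpm4 was close to the threshold and was not called in 9 of 23 alternatives. Leaving out control female replicate 1 or 3, control male replicate 1 or 2, stress female replicate 2, or stress male replicate 2 or 3 gave log2 fold changes of 0.15 to 0.18 and adjusted p of 0.0524 to 0.0712. Adjusted for the red blood cell score, the log2 fold change was 0.20 (adjusted p = 0.123), and with a pan-neuronal score it was 0.16 (adjusted p = 0.127).

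The cold channel Trpm8 (chromosome 1 from 88277661 to 88389293, plus strand) did not pass the test over both sexes. It stood at 1029, 948 and 1062 normalized values in control females and at 1104, 1059 and 1155 in stress females. In males it stood at 932, 1065 and 1279 in control and at 1022, 981 and 1060.1 in stress. The groups overlapped in both sexes, with the highest and lowest libraries both control males. Its log2 fold change was 0.02 ± 0.07 (SE, limma adjusted p = 0.852), with a 95% interval of -0.12 to 0.16. That interval reflects only the spread of these libraries, and no absence of change is read from it.

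Trpm3, a heat channel also opened by the steroid pregnenolone sulfate (chromosome 19 from 22139046 to 22995410, plus strand), stood at 1864 to 2229.7 normalized values in control and at 2036 to 2385 in stress libraries. The medians were 2031 and 2178, and 2 stress libraries, both female, lay above every control library. The log2 fold change was 0.11 ± 0.05 (SE, limma adjusted p = 0.153; 95% interval -0.01 to 0.22). It passed with scaling to the pan-neuronal genes (0.16, adjusted p = 0.0380) and without stress female replicate 2 (0.14, adjusted p = 0.0455).

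Trpc1, a subunit that joins other TRPC channels (chromosome 9 from 95705082 to 95750375, minus strand), overlapped between treatments, at 691 to 831 normalized values in control and 709.5 to 872 in stress. Its log2 fold change was 0.03 ± 0.06 (SE, limma adjusted p = 0.814; 95% interval -0.11 to 0.16). Trpv4, an osmotic and warmth channel (chromosome 5 from 114622152 to 114658421, minus strand), was low throughout, at 17.8 to 28.8 normalized values in control and 13.8 to 30.6 in stress. Its interval was wide (log2 fold change -0.06 ± 0.24 SE, limma adjusted p = 0.892; 95% interval -0.57 to 0.46), so no absence of change is read from it.

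**Figure D3:**
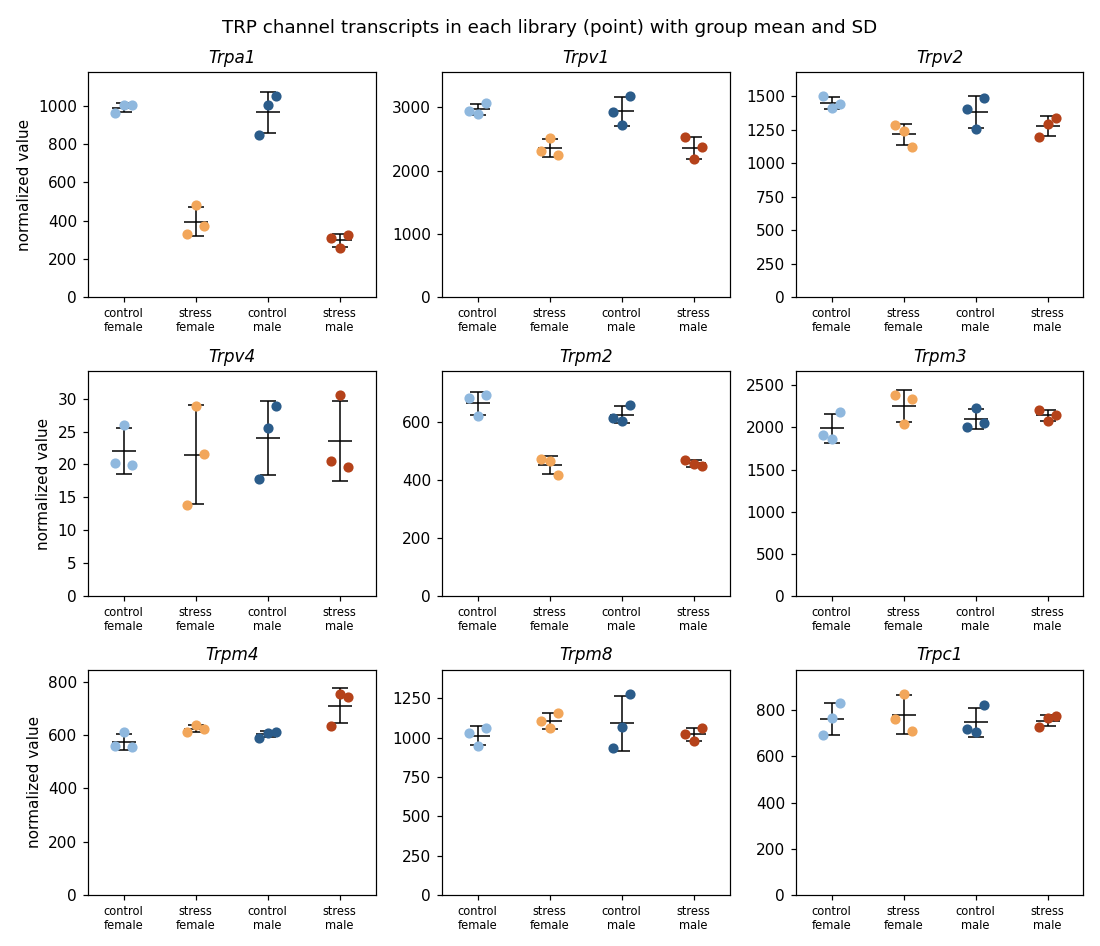
Normalized value of each TRP channel gene in each library (points, 3 per group), with the group mean and SD (bars), on axes that start at 0. Trpa1, Trpv1 and Trpm2 separate all stress from all control libraries, with Trpa1 at 259.8 to 481 in stress and 845 to 1051 in control. Trpm4 separates them upward within each sex but not over both, and Trpv2 downward in females only. The share of all genes separated within a sex was not computed.

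Ratios between channels within a library were compared between treatments. They are ratios of normalized values with no correction for length, so they do not order the levels of the genes. The Trpa1 value was 0.332 ± 0.0261 of the Trpv1 value in control libraries (SD, n = 6) and 0.146 ± 0.0275 in stress libraries (SD, n = 6). Every stress ratio (0.119 to 0.191) was below every control ratio (0.289 to 0.369). Set against Trpm8, Trpa1 went from 0.935 ± 0.0757 to 0.325 ± 0.0658, and Trpv1 from 2.83 ± 0.262 to 2.23 ± 0.188. The ratio of Trpv1 to Trpm8 did not overlap between the treatments either, though narrowly, at 1.95 to 2.47 in stress and 2.49 to 3.14 in control. The ratio of Trpm2 to Trpv1, at 0.219 ± 0.00973 in control and 0.193 ± 0.0107 in stress, overlapped (0.207 to 0.232 and 0.185 to 0.209). These ratios are given without a test, since the genes were chosen with earlier results known.

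**Figure D4:**
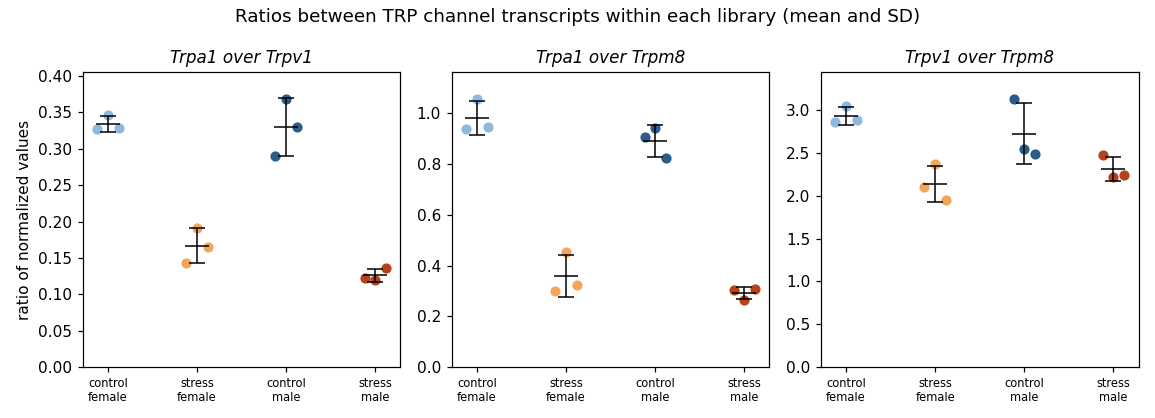
Ratios of normalized values between pairs of TRP channel genes in each library (points, 3 per group), with the group mean and SD, on axes that start at 0. Trpa1 over Trpv1 lies at 0.119 to 0.191 in stress and at 0.289 to 0.369 in control libraries.

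The effect of limited bedding was then read in each sex. In females 4 of the 9 were called lower and none higher, where 11% of all genes were called (6.07% lower, 4.96% higher): Trpa1 (log2 fold change -1.34 ± 0.12 SE), Trpm2 (-0.56 ± 0.08), Trpv1 (-0.33 ± 0.07) and Trpv2 (-0.26 ± 0.07), with limma adjusted p from 9.24e-06 to 0.0358. The female call of Trpv2 was lost in 7 of 22 alternatives, among them leaving out any control female or stress female replicate 3 (adjusted p 0.0759 to 0.134). In males 3 were called lower and none higher, where 15.8% of all genes were called (8.11% lower, 7.71% higher): Trpa1 (-1.69 ± 0.12), Trpm2 (-0.45 ± 0.08) and Trpv1 (-0.32 ± 0.07), with adjusted p from 6.10e-07 to 0.00614. Trpv2 in males was at -0.11 ± 0.07 (adjusted p = 0.327), and Trpm4 was at 0.23 ± 0.08 (adjusted p = 0.0597) in males and 0.12 ± 0.08 (adjusted p = 0.381) in females. Trpv1 lost its call in females with a pan-neuronal score as a covariate (-0.29, adjusted p = 0.0512) and in males with a red blood cell score (-0.30, adjusted p = 0.0720), against log2 fold changes of -0.33 and -0.32 without a covariate.

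The sexes were then compared directly, as the male effect of limited bedding minus the female effect. None of the 9 passed, and none had an unadjusted p under 0.05; over all genes none passed with limma, and 8.29% had an unadjusted p under 0.05. The lowest p among the 9 was that of Trpa1, at a difference of -0.35 ± 0.17 on the log2 scale (SE; unadjusted p = 0.0592, limma adjusted p = 0.606). The difference of Trpv1 was 0.02 ± 0.10 (95% interval -0.19 to 0.23) and that of Trpv2 was 0.14 ± 0.11 (95% interval -0.08 to 0.37). Between males and females, averaged over treatments, none of the 9 passed, where 0.0987% of all genes did (0.0592% lower and 0.0395% higher in males). Trpa1 (-0.22 ± 0.09, adjusted p = 0.472) and Trpm4 (0.13 ± 0.06, adjusted p = 0.511) had unadjusted p under 0.05, as had 9.46% of all genes.

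**Figure D5:**
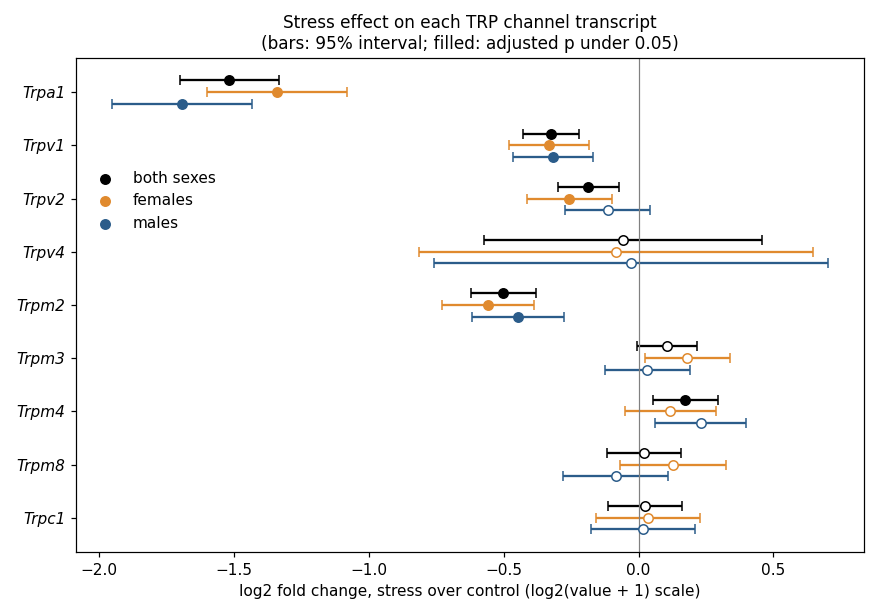
Log2 fold change of stress over control for each TRP channel gene, pooled and by sex, on the log2(value + 1) scale. Bars are 95% intervals from limma and filled points passed an adjusted p of 0.05. Trpa1 lies at -1.52, -1.34 and -1.69, and Trpv4 has the widest bars.

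The rest of the TRP superfamily was read from a list of 19 genes, of which 11 were in the table and tested. Like the other lists, it was made with earlier results of these data known. Of these, 2 were lower and none higher over both sexes, where 13.4% of all genes were lower and 12.8% higher, so the count is near the background. The counts of the lists that follow are read against the same shares. Trpc6, a diacylglycerol-gated channel, fell by 0.27 on the log2 scale (limma adjusted p = 0.0254). The median log2 fold change of the 11 was -0.17.

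Receptors and phospholipases that act upstream of TRP channels went both ways: of 26 tested 7 were lower and 7 higher, beside 13.4% and 12.8% of all genes (median log2 fold change -0.02). Ptger1, a receptor for prostaglandin E, fell by 1.01 (SE 0.08, limma adjusted p = 2.02e-07), from 370 ± 24.4 normalized values in control to 182 ± 11.5 in stress. The leukotriene receptor Cysltr2 and the interleukin 31 receptor Il31ra, both of itch neurons, fell by 1.41 and 1.25. Both are counted again among the non-peptidergic and itch neuron markers below. F2rl1, the protease receptor PAR2, rose by 1.0 ± 0.19 (adjusted p = 0.00107).

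Of 27 tested genes whose proteins bind or tune TRP channels 6 were lower and 6 higher (median -0.04). Akap5, an anchor that brings kinases to TRPV1, rose by 0.92 ± 0.12 (limma adjusted p = 3.93e-05), from 128 ± 19.1 to 246 ± 49.1 normalized values. Ano1, a chloride channel that couples to TRPV1 and also answers to heat, fell by 0.50, and Whrn, which binds TRPV1, fell by 0.30. Cav1, a membrane scaffold, rose by 0.31.

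Among 16 other channels of temperature and touch 3 were lower and 4 higher (median 0.06). The potassium channels Kcnk18 and Kcnk10 rose by 0.51 and 0.37, the mechanoreceptor channel Piezo2 rose by 0.35, and the potassium channel Kcna2 fell by 0.32. Of 7 markers of cold-sensing neurons other than Trpm8, Kcnk9 and Cdh8 rose by 0.67 and 0.36 and Penk fell by 0.62.

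Markers of the neuron classes that carry these channels, and of the other cells of the ganglion, were counted beside the same 13.4% lower and 12.8% higher over all genes. Of the 16 non-peptidergic and itch neuron markers 11 were lower and 2 higher (median log2 fold change -0.37), among them Nppb at -4.38 ± 0.27 and Sst at -4.10 ± 0.40. Of 12 peptidergic markers 4 were lower and 1 higher; Calca and Calcb, which encode CGRP peptides, fell by 0.48 and 0.76. Pan-neuronal genes had 6 of 20 lower and 4 higher (median -0.05). With libraries scaled to that list, Trpa1, Trpm2 and Trpv1 were at -1.46, -0.45 and -0.27 and kept their calls (adjusted p at most 0.000959), 3 of the 9 were lower and 2 higher, and over all genes 1232 were lower and 2697 higher, beside 2036 and 1948 with the authors' scaling.

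Of the 10 tested genes of red blood cells 8 were higher and none lower, with a summed level of 2376 to 4806 normalized values in control and 4167 to 12783 in stress libraries. With their mean log2 level as a covariate Trpa1 was at -1.36 (adjusted p = 5.42e-06), Trpm2 at -0.57 and Trpv1 at -0.31. Of 12 genes of satellite glia 5 were lower and 3 higher (summed level 71813 to 80571 in control and 55465 to 62226 in stress). Much of that sum was Apoe, at 38474 ± 2343 normalized values in control and 23146 ± 1961 in stress (SD). The median log2 fold change of the 12 was only -0.04. Fibroblast markers had 5 of 10 lower and 1 higher (123744 to 131903 and 80819 to 117685). Endothelial and pericyte markers had 3 of 11 lower (10043 to 11467 and 9028 to 9382), and for myelinating Schwann cells it was 2 of 11 (267968 to 438668 and 283646 to 402318), a count near the background. Macrophage markers, of cells that also express Trpv2 and Trpm2, had 1 of 12 higher and none lower (2320.5 to 2879 and 2495 to 3211). None of the markers tested was at 0 in every library of a treatment, and apart from the scaling and covariates given, the part of these cells in the results was not tested.

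The genes whose pattern over the 12 libraries was most like that of each called channel were found by Pearson correlation on the log2 scale among 12572 genes. For Trpa1 these were Ece2 (r = 0.99), an endothelin-converting enzyme gene, Paqr5 (r = 0.99), a progestin receptor gene, and Chrna6 (r = 0.99), a nicotinic receptor subunit, whose stress and control means were 204 ± 40.7 and 802 ± 74.2 normalized values. After the mean of each of the 4 groups was taken out, their r with Trpa1 was 0.85, 0.86 and 0.84. For Trpv1 they were Emb (0.97), Iscu (0.96) and Dnase1l3 (0.96), for Trpv2 Cyp4f39 (0.94), Ncdn (0.92) and Pgam1 (0.90), and for Trpm4 Hdac6 (0.97), Mtpn (0.94) and Snapc2 (0.93). For Trpm2 they were P2rx6 (0.97), a purinergic receptor gene, Dnase1l3 (0.96) and Lum (0.96), a matrix gene of fibroblasts, and within groups their r was only 0.45, 0.42 and 0.35. The 12 libraries share scaling and treatment, so these values are descriptions.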

How the data were processed

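Total RNA was sequenced from libraries made with a directional kit, per the labels' protocols. The submitters' processing notes name STAR, Salmon, DESeq2 and mm10, with no version. The annotation and strand setting were not given in the sources used here. Each library of the deposited table holds a normalized signal, whose mean the authors list beside it with the authors' own log2 fold change with its error, test score, p-value and adjusted p-value, per the file headers. The signal is not whole: 72.8% to 86.6% of values up to 12 in control and 28.9% to 66.3% in stress libraries lay within 0.1 of a multiple of the best step, under the 95% set for recovering reads, and count models were therefore not used. These ranges of control and stress did not overlap, and the cause was not tested.

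Groups came from the sample titles. Genes with at least 10 in at least 3 libraries were put on the log2(value + 1) scale and tested by limma (3.58.1, R 4.3.3), with a mean for each of 4 groups, a prior variance that followed expression and Benjamini-Hochberg adjustment over 15194 genes. The fit was also run on simulated whole counts with the same spread setting for every gene. The deposited values are not whole, so that run is not used as support here. Genes and lists were chosen with earlier results of these data known. From each list up to 4 called genes of largest change are named (some are not reported here), and for each called channel the 3 most correlated genes with a mean of at least 50. Positions and lengths are those of GENCODE M21 on mm10; promoters are RefSeq's on GRCm38.p6. Alternatives covered the filter, pseudocounts of 0.5 and 5, scaling, sample weights, the prior, covariates, replicate blocks and leaving out each library.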

Additional observations from a re-analysis of the deposited data

How the results depend on the processing

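Over both sexes Trpa1, Trpm2 and Trpv1 kept direction and call in all 23 alternatives. The number of the 9 channels called over both sexes was 5, 4 with the red blood cell score as covariate and 3 with the pan-neuronal score as covariate, where Trpv2 (-0.19) and Trpm4 (0.16) lost their call with fold changes close to the main ones (-0.19 and 0.17). In females it was 4, and 2 with the pan-neuronal score. Leaving out each library gave 4 to 5 channels over both sexes, 3 to 5 in females and 3 to 4 in males, and none for the difference between the sexes or for males against females. Over all genes it gave 3161 to 3953 calls for both sexes, 863 to 1950 in females (863 when control female replicate 2 was left out, 886 for control female replicate 1 and 891 for stress female replicate 1, beside 1676), 1334 to 2628 in males (1334 without control male replicate 2, beside 2403), 11 to 30 for males against females (30 without stress female replicate 2 and 27 without stress male replicate 1, beside 15), and 0 to 1 for the difference between the sexes. With the red blood cell score 1764 genes were called over both sexes and 916 in males; the cause was not tested.

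Directions turned only for channels that were not called. Trpc1 went from 0.03 to -0.0035 with the pan-neuronal score over both sexes and was at -0.0101 in females, and without single libraries ranged from -0.0156 to 0.0594 over both sexes, -0.0472 to 0.101 in females and -0.0244 to 0.0844 in males. Trpm8 ranged from -0.0335 to 0.0807 over both sexes and from -0.194 to 0.0345 in males. Trpv4 was at 0.112, 0.0461 and 0.178 with the red blood cell score (both sexes, females, males) and ranged without single libraries from -0.17 to 0.0777, -0.32 to 0.18 and -0.22 to 0.11.

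Whether replicate numbers pair the libraries was not settled. Deviations of same-numbered control and stress libraries had r of 0.04, -0.02 and 0.03 in females and 0.15, 0.07 and 0.06 in males. Differently numbered libraries had r of -0.09 to 0.06 in females and -0.19 to 0.13 in males. With the replicate number within sex as a block the calls were again 5, 4 and 3 of the 9 channels (pooled, females, males), and 2 of all genes for the difference between the sexes, beside 0. Males against females were not run with that block, since its blocks lie within a sex. Trpv4, the lowest channel, had the widest interval; depth and spread between libraries were not separated.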

Other observations

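Correlations between the called channels across the 12 libraries differed in sign and size. Pearson r on the log2 scale was 0.93 between Trpa1 and Trpv1, 0.93 between Trpa1 and Trpm2 and 0.94 between Trpv1 and Trpm2. With the mean of each of the 4 groups taken out, r was 0.59 for Trpa1 with Trpv1 and 0.62 for Trpv1 with Trpm2, against 0.13 for Trpa1 with Trpm2. Trpm4 ran the other way over the 12 libraries, at -0.74 with Trpa1, -0.71 with Trpv1 and -0.71 with Trpm2, and within groups its r was 0.06, -0.43 and -0.41. Trpv2 was at 0.68 with Trpa1, 0.78 with Trpv1 and 0.83 with Trpm2, and within groups at -0.03, 0.38 and 0.58. Trpm8 was at r = 0.03 with Trpa1 and 0.05 with Trpv1 over the 12 libraries. These are descriptions over libraries that share treatment and scaling.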
